A study of Gallus gallus and Dromaius novaehollandiae with 40 samples.

Results

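The genes described here encode the semaphorin, ephrin, slit and netrin guidance systems in early limb-level tissue of 2 birds, the chick and the emu. They were chosen by gene symbol alone, as every symbol of the semaphorins, plexins, neuropilins, ephrins and Eph receptors, slits and ROBO receptors, netrins, DCC, UNC5 receptors, FLRT proteins and RGM proteins. The rule found 50 of the 12338 genes that both early count tables list. They are 7 secreted and 8 membrane-bound semaphorins, 7 plexins, 2 neuropilins, 3 ephrins, 4 EPHA and 4 EPHB receptors, 3 slits, ROBO2, 3 netrins, 3 UNC5 receptors, 2 FLRT proteins, 2 RGM proteins and UNC50. UNC50 matches the pattern by its name only and is not a guidance receptor, which leaves 49 guidance genes. In the RefSeq gene table, 48 of the symbols are current, PLXNB1 is an older name of PLXNB3 and PLXNA4B has no entry. Which plexin is counted as PLXNB1 is therefore uncertain.

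Guidance proteins are ligands and receptors that steer migrating cells and growing axons and set borders between tissues. Secreted semaphorins signal through plexins, mostly with neuropilins as co-receptors, and neuropilins also bind vascular endothelial growth factor. Ephrins and Eph receptors act at contacts between neighbouring cells, and slits repel cells that carry ROBO receptors. FLRT proteins bind UNC5 receptors, RGM proteins bind neogenin, and some netrins bind UNC5, DCC and neogenin. Besides axons, these systems are known to act on blood vessels, neural crest cells and mesenchyme.

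The series compares chick and emu limb-forming tissue; the emu wing is small and starts to grow late. Early libraries hold forelimb-level tissue of 3 kinds: undivided lateral plate mesoderm, its outer layer, somatopleure, and its inner layer, splanchnopleure. The limb bud grows from somatopleure, and splanchnopleure becomes part of the gut wall. By Hamburger-Hamilton (HH) stage, the lateral plate libraries are labelled HH10 and those of both layers HH13. The exceptions are emu lateral plate 1, with the label HH13, and emu somatopleure 13, with the label HH10. The chick has 3 libraries per tissue (lateral plate 30, 31 and 32, somatopleure 15, 60 and 63, splanchnopleure 50, 61 and 64). The emu has lateral plate 1, 23 and 8, somatopleure 13, 53 and 5, and splanchnopleure 6 and a library named pool, and all values below follow these orders. No group carried a treatment or an altered gene. Tissue and stage change together against the lateral plate, so their effects cannot be told apart there.

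Total counts per library were 5061393 to 8348865 in the chick and 7350786 to 8601471 in the emu. TBX5, the forelimb identity gene, stood at 125 to 142 CPM (read counts scaled to a common library size) in chick somatopleure and at most 18.5 in the other chick tissues. Emu somatopleure 5 held 76.9 CPM of TBX5, against 10.8 and 6.96 in somatopleure 13 and 53, and the emu splanchnopleure pool held 25.2, more than both of the latter. Of 8 measured somatopleure and limb-field markers, 5 were called higher in chick somatopleure than in lateral plate, beside 3.52% of all genes. Their median log2 fold change there was 3.05. In the emu 0 of the 8 were called, where 0.0% of all genes were, and the median was 0.73. Summed levels of 14 endothelial markers were 270 to 434 CPM in chick somatopleure, 970 to 1226 in chick lateral plate and 1085 to 1583 in chick splanchnopleure. In the emu they were 281 to 641, 528 to 666 and 1129 to 2244 in the same order of tissues, and none of the 14 was under 1 CPM throughout a tissue. The summed level of 6 somite and presomitic mesoderm markers was 472 CPM in chick lateral plate 30, against 77.8 and 198 in the others. It was at most 28.5 in either chick layer. In lateral plate 30, TBX6, DLL1 and MEOX1 of this list were at 201, 139 and 68.4 CPM.

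**Figure D1:**
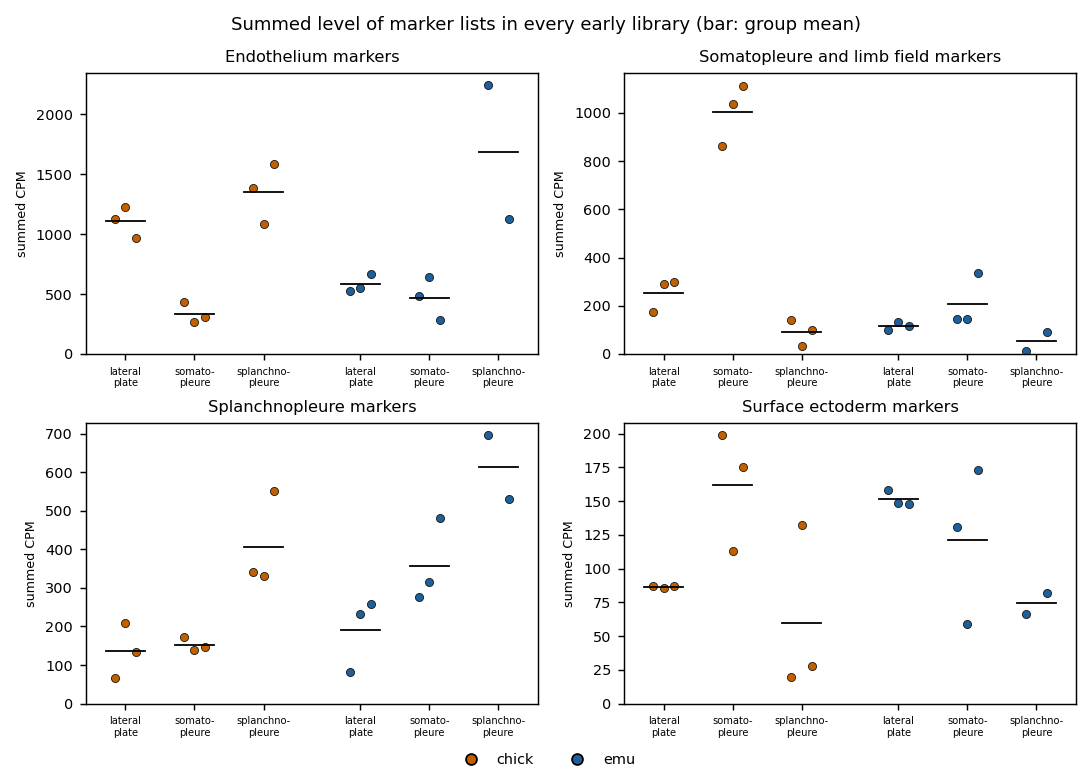
Summed level (CPM) of 4 lists of marker genes in each early library (points) with the group mean (bars), by tissue and species. Endothelial markers are at 270 to 434 CPM in chick somatopleure and reach 2244 CPM in emu splanchnopleure 6, and the emu somatopleure library with 336 CPM of limb-field markers is somatopleure 5.

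Most of the guidance genes called in splanchnopleure against lateral plate were higher there, in both birds. A gene was called where edgeR's adjusted p was under 0.05, and it rose or fell in the first tissue named. In chick splanchnopleure against lateral plate, 16 of 48 tested members rose, beside 9.07% of all tested genes, and 4 fell, beside 7.78%. Together 16.9% of all genes were called, with a median log2 fold change of 0.44 for the members and 0.01 for all genes. In emu splanchnopleure against lateral plate, 14 of 50 members rose, beside 11.4% of all genes, and 5 fell, beside 9.21%. Together 20.6% of all genes were called, with medians of 0.49 and 0.0. Without emu splanchnopleure 6, 6 of the 50 members were called, where 3.26% of all genes were, and without both libraries of departing stage 12 were, beside 6.2%.

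Between both layers, most called members were lower in somatopleure. In the chick, 3 of 48 members rose in somatopleure against splanchnopleure, beside 7.34% of all genes, and 17 fell, beside 11.8%. Together 19.1% of all genes were called, with medians of -0.24 for members and 0.0 for all genes. In the emu, 3 of 50 rose, beside 5.05% of all genes, and 14 fell, beside 8.34%. Together 13.4% of all genes were called, with medians of -0.37 and 0.04. Without emu splanchnopleure 6 the emu count was 7, beside 2.43% of all genes. Without somatopleure 13 or 53 it was 11, beside 6.92% and 8.79%, and without both libraries of departing stage it was 10, beside 4.29%.

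In chick somatopleure against lateral plate, 7 of 48 members rose, beside 3.52% of all genes, and 8 fell, beside 6.28%. Together 9.8% of all genes were called, and the median was -0.08 for members and 0.0 for all genes. The risers were SEMA3C, FLRT2, SEMA3E, SEMA5A, FLRT3, EPHA4 and SEMA5B, and the fallers were NRP1, PLXNA4B, SEMA3G, SEMA6A, PLXND1, EFNB2, EPHB1 and PLXNA2. In the emu, 0 of 50 members were called by edgeR in the same comparison, where 0.0% of all genes were called. At an unadjusted p under 0.05 there were 10 of the 50 members and 1107 of 10640 genes, and DESeq2 called 2 members, SEMA3D and NRP1, beside 1.32% of all genes. The 3 comparisons of a species share libraries, so their counts are not independent of each other.

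**Figure D2:**
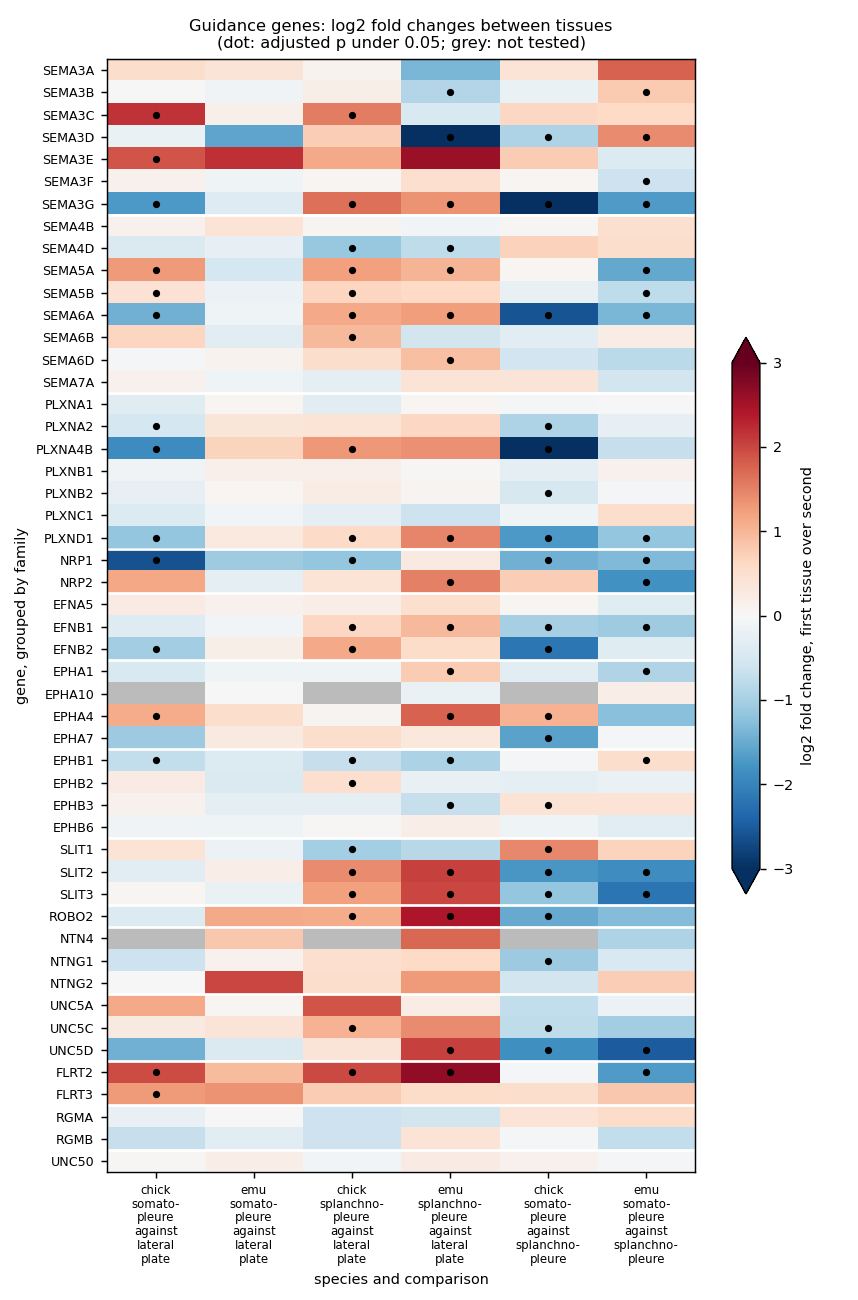
Fitted log2 fold change of each of the 50 genes (rows, grouped by family) in the 3 tissue comparisons of each species (columns); red is higher and blue lower in the first tissue named, dots mark an adjusted p under 0.05 and grey was not tested. The emu somatopleure against lateral plate column has no dot, and SEMA3D is red in chick and blue in emu splanchnopleure against lateral plate.

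The ligands SLIT2 and SLIT3 and ROBO2, a receptor of slits, were among the members that rose in the splanchnopleure of both birds. Chick SLIT2 stood at 48.3, 64.3 and 53.1 CPM in lateral plate, 46.8, 43.6 and 42.7 in somatopleure and 144, 145 and 156 in splanchnopleure. Every splanchnopleure library was above every other chick library, with a log2 fold change of 1.42 over lateral plate (SE 0.12, adjusted p = 0.000107) and of -1.74 for somatopleure against splanchnopleure (SE 0.12, adjusted p = 8.16e-06). Emu SLIT2 stood at 118, 143 and 168 CPM in lateral plate, 176, 159 and 158 in somatopleure and 736 and 461 in splanchnopleure. Again both splanchnopleure libraries were above all others, with a rise of 2.06 over lateral plate (SE 0.21, adjusted p = 0.00206) and -1.87 between the layers (SE 0.21, adjusted p = 0.00246).

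SLIT3 was also highest in the splanchnopleure of both birds. In the chick it was at 135, 136 and 142 CPM in lateral plate, 153, 138 and 139 in somatopleure and 236, 301 and 421 in splanchnopleure, a rise of 1.22 over lateral plate (SE 0.17, adjusted p = 0.00141). In the emu it was at 59.8, 100 and 106, then 88.3, 73.6 and 71.8, then 446 and 271 CPM, a rise of 2.01 (SE 0.27, adjusted p = 0.00328). The splanchnopleure libraries overlapped no other library in either species. SLIT3 also fell in somatopleure against splanchnopleure, by 1.16 in the chick (SE 0.17, adjusted p = 0.000798) and by 2.20 in the emu (SE 0.27, adjusted p = 0.00344).

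ROBO2 was at 33.9, 36.5 and 34.4 CPM in chick lateral plate, 24.5, 25.2 and 29.9 in somatopleure and 59.6, 67.4 and 100 in splanchnopleure. Its rise over lateral plate was 1.12 (SE 0.18, adjusted p = 0.00331), and it fell by 1.52 in somatopleure against splanchnopleure (SE 0.19, adjusted p = 0.000283). Its emu levels were 6.86, 6.53 and 7.22 CPM in lateral plate, 16.3, 7.51 and 21.2 in somatopleure and 43.8 and 29.9 in splanchnopleure. All 3 emu tissues stood apart for ROBO2, in ascending order from lateral plate, but only splanchnopleure against lateral plate was called (2.42, SE 0.38, adjusted p = 0.00519), and that call ended without splanchnopleure 6 (adjusted p = 0.0501). The other emu values were 1.13 for somatopleure against lateral plate (SE 0.35, adjusted p = 0.365) and -1.29 for somatopleure against splanchnopleure (SE 0.37, adjusted p = 0.0506). DESeq2 called the latter (-1.31, adjusted p = 0.00943).

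SLIT1 went the other way from its relatives in the chick. It was at 25.3, 39.0 and 39.3 CPM in lateral plate, 55.9, 29.7 and 52.4 in somatopleure and 11.7, 17.3 and 21.9 in splanchnopleure. The splanchnopleure libraries were below all others, with a change of -1.01 against lateral plate (SE 0.29, adjusted p = 0.0364) and of 1.43 for somatopleure against splanchnopleure (SE 0.29, adjusted p = 0.00574). The first call ended without lateral plate 31 or 32 or splanchnopleure 50 or 61 (adjusted p 0.0689 to 0.118). Emu SLIT1 stood at 43.1, 38.0 and 38.5 CPM in lateral plate, 44.2, 37.1 and 24.9 in somatopleure and 12.8 and 31.7 in splanchnopleure and was called nowhere.

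Fewer cells of a type and less RNA per cell cannot be told apart in such bulk libraries. Splanchnopleure markers were called higher over lateral plate for 4 of 4 tested genes in the chick, beside 9.07% of all genes. In the emu 2 of 4 rose, beside 11.4%, and 1 fell, beside 9.21%. Of the 14 endothelial markers, 1 rose in chick splanchnopleure against lateral plate, beside 9.07% of all genes, and 11 rose in the emu, beside 11.4%. The part of endothelial cells in the emu rises of SLIT2, SLIT3 and ROBO2 was not tested.

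**Figure D3:**
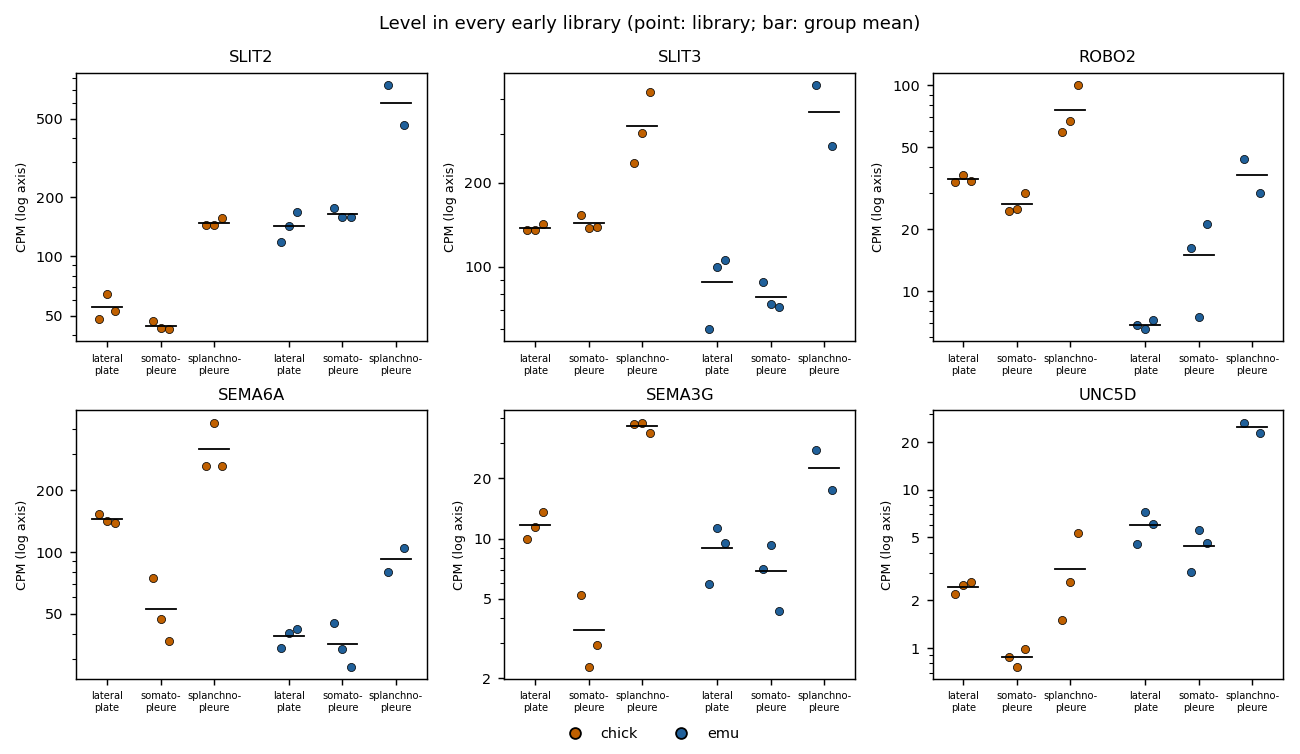
Level (CPM, log axis) of SLIT2, SLIT3, ROBO2, SEMA6A, SEMA3G and UNC5D in each early library (points) with group means (bars). For SLIT2 and SLIT3 each splanchnopleure library is above every library of the other tissues of its species, with emu SLIT2 at 736 and 461 CPM.

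Among the membrane-bound semaphorins, SEMA6A, which binds A-type plexins, differed most between the layers of the chick. Chick SEMA6A was at 153, 142 and 139 CPM in lateral plate, 74.6, 47.0 and 36.8 in somatopleure and 263, 429 and 264 in splanchnopleure. The 3 tissues did not overlap: SEMA6A rose by 1.14 in splanchnopleure over lateral plate (SE 0.24, adjusted p = 0.01) and fell by 1.45 in somatopleure (SE 0.25, adjusted p = 0.00385). Between the layers the change was -2.59 in the chick (SE 0.25, adjusted p = 7.58e-05). Emu SEMA6A was at 33.9, 40.4 and 42.2 CPM in lateral plate, 45.2, 33.6 and 27.6 in somatopleure and 79.9 and 105 in splanchnopleure. It rose by 1.25 over lateral plate (SE 0.22, adjusted p = 0.0073) and differed by -1.38 between the layers (SE 0.22, adjusted p = 0.00648), while emu somatopleure and lateral plate overlapped (-0.13, SE 0.20).

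SEMA5A, a semaphorin with thrombospondin repeats, rose in the splanchnopleure of both birds and in the somatopleure of the chick. It was at 15.0, 21.1 and 24.2 CPM in chick lateral plate, 31, 43.0 and 71.5 in somatopleure and 40.9, 47.3 and 50.9 in splanchnopleure. The rises were 1.28 in somatopleure (SE 0.28, adjusted p = 0.015) and 1.22 in splanchnopleure (SE 0.28, adjusted p = 0.0153). The first ended without lateral plate 30 (adjusted p = 0.0688) and the second without lateral plate 30 (0.0694) or splanchnopleure 64 (0.0555). In emu splanchnopleure SEMA5A was at 45.8 and 43.2 CPM, above every other emu library, and it rose by 1.02 over lateral plate (SE 0.21, adjusted p = 0.013; 0.0923 without splanchnopleure 6). Its close relative SEMA5B rose in chick somatopleure (0.43, SE 0.11, adjusted p = 0.0304) and splanchnopleure (0.65, SE 0.11, adjusted p = 0.00362). The somatopleure call of SEMA5B ended without lateral plate 30 or 32 or somatopleure 60 or 63 (adjusted p 0.0632 to 0.112). Between the emu layers SEMA5B was called lower in somatopleure, at 36.8, 38.8 and 46.7 against 69.7 and 68.7 CPM. That call was lost in 6 of 13 alternatives.

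SEMA4D, a ligand of plexin B1 in mammals, fell in splanchnopleure against lateral plate in both species. Its levels were 62.8, 42.7 and 49.5 CPM in chick lateral plate and 18, 32.6 and 20.6 in splanchnopleure (-1.13, SE 0.23, adjusted p = 0.00897). In the emu they were 61.8, 42.1 and 52.4 against 27.2 and 34.0 CPM (-0.77, SE 0.21, adjusted p = 0.0334). Neither pair of tissues overlapped, but the emu call ended without lateral plate 1 or 8 or without either splanchnopleure library (adjusted p 0.0567 to 0.219). Of the other membrane semaphorins, SEMA6B rose in chick splanchnopleure (0.97, SE 0.20, adjusted p = 0.00903) and SEMA6D in emu splanchnopleure (0.91, SE 0.27, adjusted p = 0.0432). The SEMA6D call ended without splanchnopleure 6 (adjusted p = 0.363), any single lateral plate library or somatopleure 13. SEMA4B and SEMA7A were called in no comparison.

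The secreted semaphorins are class 3 proteins, most of which bind neuropilins. Of 7, 2 rose in chick splanchnopleure over lateral plate, beside 9.07% of all genes, and 0 fell, beside 7.78%. In emu splanchnopleure 1 of the 7 rose, beside 11.4% of all genes, and 2 fell, beside 9.21%. SEMA3G rose in both birds. It was at 10, 11.4 and 13.6 CPM in chick lateral plate, 5.24, 2.29 and 2.95 in somatopleure and 37.6, 38.0 and 33.7 in splanchnopleure, with no overlap between tissues. In the chick it rose by 1.65 in splanchnopleure (SE 0.25, adjusted p = 0.00212) and fell by 1.73 in somatopleure against lateral plate (SE 0.28, adjusted p = 0.00269) and by 3.37 between the layers (SE 0.27, adjusted p = 2.41e-05). In the emu it was at 5.94, 11.3 and 9.55 CPM in lateral plate, 7.03, 9.28 and 4.34 in somatopleure and 27.7 and 17.5 in splanchnopleure. There it rose by 1.34 over lateral plate (SE 0.39, adjusted p = 0.0401) and differed by -1.71 between the layers (SE 0.39, adjusted p = 0.0249). Both emu calls of SEMA3G ended without splanchnopleure 6 and without somatopleure 13 (adjusted p = 0.0555 and 0.0667 without the latter). The first also ended without any single lateral plate library. Of 13 alternatives, 6 lost the first call and 4 the second.

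SEMA3C, known for its part in outflow tract and vessel development, was low in chick lateral plate, at 3.75, 6.38 and 5.61 CPM, and reached 13.1, 20.4 and 36.2 in somatopleure and 16.1, 17.3 and 11.8 in splanchnopleure. Both layers were above lateral plate, with rises of 2.16 in somatopleure (SE 0.37, adjusted p = 0.00393) and 1.53 in splanchnopleure (SE 0.37, adjusted p = 0.0191). The splanchnopleure call ended without lateral plate 30 (adjusted p = 0.0832) or 32 (0.0602). Emu SEMA3C overlapped between all tissues, at 16.0, 23 and 21.8, then 31.4, 10.7 and 25.4, then 13.1 and 16.6 CPM. The species difference was 2.05 for somatopleure against lateral plate (SE 0.55, adjusted p = 0.0608). It was not called by edgeR and was called by DESeq2 (2.03, adjusted p = 0.0112).

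SEMA3E, in mouse a ligand of plexin D1, had few reads. It was at 2.54, 5.93 and 1.0 CPM in chick lateral plate and 16.5, 11.1 and 8.37 in somatopleure, which did not overlap (1.89, SE 0.48, adjusted p = 0.0306). That call ended without lateral plate 30 or 32 or somatopleure 15 or 60 (adjusted p 0.0616 to 0.118), and narrowly when only both tissues were fitted (0.0504). SEMA3B fell in emu splanchnopleure against lateral plate, from 62.6, 91.0 and 71.0 to 34.0 and 46.7 CPM (-0.89, SE 0.20, adjusted p = 0.0165; 0.134 without splanchnopleure 6). SEMA3F is a ligand with a preference for neuropilin 2 in mammals. Among the 6 comparisons edgeR called it only in emu somatopleure against splanchnopleure (-0.61, SE 0.16, adjusted p = 0.0408). Its levels there were 159, 137 and 125 against 237 and 193 CPM, and its call ended without lateral plate 1 or 8, somatopleure 53 or 5 or splanchnopleure 6 (adjusted p 0.0511 to 0.299). SEMA3B was called higher in emu somatopleure than in splanchnopleure, at 73.0, 66.8 and 69.3 against 34.0 and 46.7 CPM. That call was lost in 6 of 13 alternatives. DESeq2 also called SEMA3F in emu splanchnopleure against lateral plate (0.51, adjusted p = 0.0373). By edgeR SEMA3A was called in no comparison, and DESeq2 called it in chick somatopleure against lateral plate (0.54, adjusted p = 0.0267).

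In the RefSeq gene table of the chicken assembly GRCg7b, SEMA3D, SEMA3A and SEMA3E follow each other on chromosome 1 with 0 protein-coding genes between neighbours, and 3 lie between SEMA3E and SEMA3C. In chick somatopleure against lateral plate these neighbours had changes of -0.20 for SEMA3D, 0.53 for SEMA3A, 1.89 for SEMA3E and 2.16 for SEMA3C. Only the last pair was called by edgeR, and DESeq2 also called SEMA3A (0.54, adjusted p = 0.0267). In emu splanchnopleure against lateral plate the values were -3.01, -1.38, 2.60 and -0.45 in the same order, with only SEMA3D called by edgeR. DESeq2 also called SEMA3E there (2.62, adjusted p = 0.0105). SEMA3F and SEMA3B, with 3 genes between them on chromosome 12, had emu values of 0.50 and -0.89 there.

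Of the co-receptors, NRP1, which serves both class 3 semaphorins and vascular endothelial growth factor, had the largest fall of any member in chick somatopleure against lateral plate. It was at 476, 462 and 543 CPM in lateral plate, 98.0, 76.4 and 68.2 in somatopleure and 206, 172 and 282 in splanchnopleure. The 3 chick tissues did not overlap, with changes of -2.61 in somatopleure (SE 0.18, adjusted p = 1.86e-05) and -1.16 in splanchnopleure (SE 0.17, adjusted p = 0.00204) against lateral plate. Emu NRP1 was at 528, 325 and 358 CPM in lateral plate, 176, 234 and 170 in somatopleure and 628 and 343 in splanchnopleure. Every emu somatopleure library was below all others. That difference was not called by edgeR against lateral plate (-1.06, SE 0.26, adjusted p = 0.301) and was called by DESeq2 (-1.07, adjusted p = 0.00682). Against splanchnopleure it was -1.33 (SE 0.28, adjusted p = 0.0199), a call that ended without splanchnopleure 6 (0.183) or somatopleure 13 (0.0627).

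NRP2, the second co-receptor, had its highest mean in the somatopleure of the chick and in the splanchnopleure of the emu. It was at 228, 424 and 346 CPM in chick lateral plate, 541, 800 and 877 in somatopleure and 299, 309 and 718 in splanchnopleure, and no chick comparison was called (somatopleure against lateral plate 1.15, SE 0.34, adjusted p = 0.0544). Emu NRP2 was at 199, 475 and 387 CPM in lateral plate, 186, 224 and 448 in somatopleure and 975 and 1041 in splanchnopleure. Both emu splanchnopleure libraries were above all others, with 1.51 over lateral plate (SE 0.41, adjusted p = 0.0311) and -1.82 between the layers (SE 0.41, adjusted p = 0.0233). Without splanchnopleure 6 both calls ended (adjusted p = 0.128 and 0.119), as they did without the pool (0.0907 and 0.0652). The first also ended without lateral plate 1 or 8 (0.0813 and 0.0723), and the second without somatopleure 13 or 53 (0.0666 and 0.0654).

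PLXND1, a semaphorin receptor known for its expression in blood vessels, had 251, 233 and 180 CPM in chick lateral plate, 111, 94.4 and 93.9 in somatopleure and 313, 257 and 422 in splanchnopleure. None of these tissues overlapped, and PLXND1 fell by 1.15 in somatopleure against lateral plate (SE 0.18, adjusted p = 0.00216) and by 1.73 between the layers (SE 0.18, adjusted p = 9.68e-05). The rise in chick splanchnopleure over lateral plate (0.58, SE 0.17, adjusted p = 0.0417) ended without any single lateral plate library, somatopleure 60 or splanchnopleure 50 or 64 (adjusted p 0.0565 to 0.171). In the emu PLXND1 was at 185, 299 and 200 CPM in lateral plate, 317, 232 and 291 in somatopleure and 737 and 526 in splanchnopleure. Both splanchnopleure libraries stood above the rest, with 1.47 over lateral plate (SE 0.23, adjusted p = 0.00528) and -1.17 between the layers (SE 0.23, adjusted p = 0.016). Without splanchnopleure 6 these were not called (adjusted p = 0.0525 and 0.143).

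Endothelial markers moved with NRP1, PLXND1 and SEMA3G in several of these comparisons, but not in all. Of 14 markers, 11 fell in chick somatopleure against lateral plate and 11 against splanchnopleure, and 12 fell in emu somatopleure against splanchnopleure. Of all genes, 6.28%, 11.8% and 8.34% fell in the same order of comparisons. CDH5, the endothelial cadherin, changed by -1.81, -2.26 and -1.92 in those comparisons. In chick splanchnopleure against lateral plate 0 of 14 markers fell, beside 7.78% of all genes, and 1 rose, beside 9.07%. NRP1 fell there, whereas PLXND1 and SEMA3G rose. In emu splanchnopleure against lateral plate 11 of 14 markers rose, beside 11.4%. PLXND1 and SEMA3G also rose there, and NRP1 was not called (0.27). In emu somatopleure against lateral plate 0 of the 14 were called, where 0.0% of all genes were. Endoderm markers moved too: of 7, 4 fell in chick somatopleure against lateral plate, 5 between the chick layers and 5 between the emu layers. Their summed levels were 154 to 228 CPM in chick somatopleure and 263 to 416 in chick splanchnopleure. In the emu the sums overlapped, at 306 to 429 CPM in somatopleure and 364 to 373 in splanchnopleure. Of 5 tested somite and presomitic markers, 5 fell in either chick layer against lateral plate. The part of endothelial, endodermal, somite or presomitic cells in the changes of NRP1, PLXND1 and SEMA3G was not tested.

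Of the A-type plexins, PLXNA4B had the largest spread between chick tissues. It was at 12.8, 12.5 and 19 CPM in lateral plate, 3.87, 4.46 and 3.57 in somatopleure and 25.8, 42.6 and 40.2 in splanchnopleure. No chick tissues overlapped, with a fall of 1.88 in somatopleure (SE 0.26, adjusted p = 0.00121), a rise of 1.30 in splanchnopleure (SE 0.24, adjusted p = 0.00527) and -3.19 between the layers (SE 0.26, adjusted p = 2.54e-05). Emu PLXNA4B spread widely within tissues, at 6.97, 20.6 and 9.06, then 15.6, 8.47 and 33.7, then 24.5 and 37.9 CPM, and was called nowhere. PLXNA2 fell in chick somatopleure against splanchnopleure (-0.93, SE 0.14, adjusted p = 0.00112) and against lateral plate (-0.52, SE 0.14, adjusted p = 0.0422). The second of these was lost without any single lateral plate library, somatopleure 60 or 63 or splanchnopleure 50 or 64 (adjusted p 0.0554 to 0.132). PLXNB2 fell between the chick layers (-0.47, SE 0.13, adjusted p = 0.0301; lost without somatopleure 15 or splanchnopleure 61 or 64, adjusted p 0.062 to 0.124). PLXNA1, at 306 to 457 CPM in every library of both birds, PLXNB1 and PLXNC1 were called in no comparison by edgeR. DESeq2 called PLXNA1 in chick somatopleure against lateral plate (-0.35, adjusted p = 0.0343).

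Of the ephrins, EFNB1 rose in the splanchnopleure of both birds and EFNB2 in that of the chick, whereas called Eph receptors moved in both directions. EFNB1, a transmembrane ligand of EPHB receptors, was at 286, 456 and 407 CPM in chick lateral plate, 279, 308 and 295 in somatopleure and 576, 599 and 594 in splanchnopleure. Emu EFNB1 was at 148, 246 and 226, then 221, 182 and 179, then 344 and 467 CPM. Splanchnopleure overlapped no other tissue in either bird. EFNB1 rose over lateral plate by 0.62 in the chick (SE 0.14, adjusted p = 0.0118) and by 0.97 in the emu (SE 0.22, adjusted p = 0.0181). Between the layers it fell by 1.0 in chick somatopleure (SE 0.14, adjusted p = 0.000573) and by 1.06 in emu somatopleure (SE 0.22, adjusted p = 0.0188). Without splanchnopleure 6 the emu rise had an adjusted p of 0.0514, and without the pool 0.095. The emu fall was lost without the pool (0.0853) or somatopleure 53 (0.0513).

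EFNB2, known as a marker of arterial endothelium in mouse, was at 21.2, 23.9 and 17.0 CPM in chick lateral plate, 13.4, 9.81 and 7.14 in somatopleure and 51.4, 36.9 and 47.8 in splanchnopleure. The chick tissues did not overlap, with a rise of 1.13 in splanchnopleure (SE 0.23, adjusted p = 0.00805), a fall of 1.04 in somatopleure (SE 0.24, adjusted p = 0.0188) and -2.17 between the layers (SE 0.24, adjusted p = 0.000139). The fall against lateral plate ended without lateral plate 30 or 31 or somatopleure 60 or 63 (adjusted p 0.0553 to 0.0711). Of the 14 endothelial markers, 11 fell in chick somatopleure against lateral plate, beside 6.28% of all genes, and 11 against splanchnopleure, beside 11.8%. Their medians were -1.76 and -1.99, and their part in the EFNB2 falls was not tested. In the emu EFNB2 was between 88.7 and 102 CPM in lateral plate, 69.8, 117 and 144 in somatopleure and 173 and 113 in splanchnopleure, and no comparison was called. EFNA5, the one measured A-type ephrin, stayed between 10.5 and 22.9 CPM and was called nowhere.

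EPHA4, an ephrin receptor of limb mesenchyme, rose in the somatopleure of the chick and in the splanchnopleure of the emu. It was at 33.6, 19.6 and 33.2 CPM in chick lateral plate, 50.1, 47.1 and 90.7 in somatopleure and 33.4, 27.1 and 31 in splanchnopleure. Chick somatopleure was above both other tissues, by 1.12 over lateral plate (SE 0.27, adjusted p = 0.0233) and 1.04 over splanchnopleure (SE 0.27, adjusted p = 0.02). The first call ended without lateral plate 31 or 32 or somatopleure 63 (adjusted p 0.0561 to 0.0764), and the second without somatopleure 63 or splanchnopleure 61 or 64 (0.0543 to 0.0655). In the emu EPHA4 was at 49.7, 37.2 and 38.7 CPM in lateral plate, 39.2, 36.9 and 106 in somatopleure and 165 and 124 in splanchnopleure. Its rise in emu splanchnopleure over lateral plate was 1.78 (SE 0.41, adjusted p = 0.0189), lost without any single lateral plate library or splanchnopleure 6 (adjusted p 0.0511 to 0.126). The emu somatopleure library at 106 CPM was somatopleure 5, the one with the most TBX5.

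EPHB1, a receptor of the B-type ephrins, was highest in the lateral plate of both birds. Its chick levels were 109, 98.6 and 103 CPM in lateral plate, 66.4, 56.8 and 63.3 in somatopleure and 50.9, 62.6 and 78.3 in splanchnopleure, so that it fell by 0.74 in somatopleure (SE 0.14, adjusted p = 0.00781) and by 0.69 in splanchnopleure (SE 0.14, adjusted p = 0.00925). Its emu levels were 186, 175 and 175, then 135, 130 and 135, then 103 and 82.9 CPM. The emu tissues did not overlap, with -0.94 for splanchnopleure against lateral plate (SE 0.12, adjusted p = 0.00297), 0.52 between the layers (SE 0.12, adjusted p = 0.0263) and an uncalled -0.42 for somatopleure against lateral plate (SE 0.11, adjusted p = 0.309). Somite and presomitic markers fell in the same chick comparisons, 5 of 5 in each. Of all genes, 6.28% fell in somatopleure and 7.78% in splanchnopleure. In the emu 0 of 5 fell in somatopleure against lateral plate, where 0.0% of all genes were called. In emu splanchnopleure against lateral plate 1 of 5 fell, beside 9.21% of all genes. The part of somite or presomitic cells in the EPHB1 values was not tested. The emu difference of EPHB1 between the layers was lost in 5 of 13 alternatives, among them those without lateral plate 8, somatopleure 13 or the pool.

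EPHB3 was lower in splanchnopleure: it was called between the chick layers (0.40, SE 0.09, adjusted p = 0.00995) and in emu splanchnopleure against lateral plate (-0.68, SE 0.14, adjusted p = 0.0113; 0.0958 without splanchnopleure 6). EPHB2 rose in chick splanchnopleure over lateral plate, from 120, 136 and 120 to 147, 190 and 195 CPM (0.50, SE 0.13, adjusted p = 0.0222). That call ended without lateral plate 30 or 32 or splanchnopleure 61 or 64 (adjusted p 0.0605 to 0.0875). EPHA7 fell between the chick layers (-1.61, SE 0.41, adjusted p = 0.019; 0.0662 without splanchnopleure 61). EPHA1 rose in emu splanchnopleure (0.76, SE 0.21, adjusted p = 0.0316), a call lost without either splanchnopleure library or any single lateral plate library (adjusted p 0.0669 to 0.124). EPHB6 was called in no comparison.

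FLRT2 and FLRT3, membrane proteins that bind UNC5 receptors, were lower in chick lateral plate than in every library of the chick somatopleure. Chick FLRT2 was at 8.11, 14.1 and 11.0 CPM in lateral plate, 38.3, 33.9 and 55.8 in somatopleure and 37.9, 25.0 and 68.0 in splanchnopleure. Both chick layers were above lateral plate, by 1.95 in somatopleure (SE 0.36, adjusted p = 0.0058) and 1.99 in splanchnopleure (SE 0.36, adjusted p = 0.00519). Emu FLRT2 was at 35.9, 35.7 and 37.8 CPM in lateral plate, 44.1, 35.4 and 133 in somatopleure and 281 and 182 in splanchnopleure. Emu splanchnopleure was above all other libraries, with 2.67 over lateral plate (SE 0.49, adjusted p = 0.00863; 0.0674 without splanchnopleure 6). The emu difference between the layers (-1.71, SE 0.48, adjusted p = 0.0461) was lost without any emu library other than somatopleure 5 (adjusted p 0.0636 to 0.284).

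FLRT3 rose in chick somatopleure, from 51.1, 59.0 and 49.1 to 113, 111 and 162 CPM, which did not overlap (1.28, SE 0.25, adjusted p = 0.00873). Chick splanchnopleure, at 72.1, 62.9 and 132 CPM, was above lateral plate and overlapped somatopleure. There edgeR made no call, and DESeq2 called the FLRT3 rise over lateral plate (0.75, adjusted p = 0.0214). In the emu it was at 58.2, 90.9 and 72.4 CPM in lateral plate, 146, 85.1 and 332 in somatopleure and 69.5 and 146 in splanchnopleure, and the emu change in somatopleure, 1.35, was not called (SE 0.47, adjusted p = 0.381). The 332 CPM belong to somatopleure 5, which was also the highest emu somatopleure library for EPHA4 and FLRT2.

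UNC5 receptors bind FLRT proteins and some netrins, and UNC5D was lower in the somatopleure than in the splanchnopleure of both birds. Emu UNC5D was at 4.57, 7.26 and 6.12 CPM in lateral plate, 3.01, 5.6 and 4.6 in somatopleure and 26.6 and 23 in splanchnopleure. Both splanchnopleure libraries were far above the rest, with 2.05 over lateral plate (SE 0.32, adjusted p = 0.00501) and -2.49 between the layers (SE 0.32, adjusted p = 0.00377). Chick UNC5D had few reads, at 0.874, 0.764 and 0.985 CPM in somatopleure and 1.5, 2.6 and 5.32 in splanchnopleure (-1.85, SE 0.50, adjusted p = 0.0257), a call that ended without any single somatopleure library or splanchnopleure 64 (adjusted p 0.0521 to 0.148).

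UNC5C was at 89.8, 152 and 120 CPM in chick lateral plate, 113, 170 and 153 in somatopleure and 218, 188 and 338 in splanchnopleure. Splanchnopleure was above both others, with 1.04 over lateral plate (SE 0.24, adjusted p = 0.0153) and -0.77 between the layers (SE 0.24, adjusted p = 0.0441). The first ended without lateral plate 30 or 32 or splanchnopleure 64 (adjusted p 0.0568 to 0.0678), and the second without lateral plate 32, any single somatopleure library or splanchnopleure 50 or 64 (0.0556 to 0.191). Emu UNC5C was at 31.4, 87.0 and 103, then 63.8, 92.8 and 132, then 217 and 177 CPM. Its change of 1.42 over lateral plate was not called by edgeR (SE 0.44, adjusted p = 0.0506) and was called by DESeq2 (1.43, adjusted p = 0.00429).

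Of the netrin members, NTN4, NTNG1 and NTNG2, the first and last were sparse in the chick and NTNG1 in the emu. The canonical receptor DCC is not among the 50 members. NTNG1, a membrane-anchored netrin, was at 28.1, 28.9 and 27.9 CPM in chick splanchnopleure and 17.5, 11.2 and 11.3 in somatopleure (-1.09 for somatopleure, SE 0.32, adjusted p = 0.0362). The call ended without somatopleure 60 or 63 or any single splanchnopleure library (adjusted p 0.0716 to 0.111). Emu NTNG2 ran from 9.93 to 96.0 CPM, with the highest value in somatopleure 5, and was called nowhere. The RGM proteins, ligands of neogenin, were called in no comparison; RGMA stood at 8.93 to 23.5 CPM over all libraries and RGMB at 4.19 to 14.2 in the chick and 26.0 to 60.6 in the emu. UNC50 stood at 15.1 to 23.3 CPM and was called nowhere.

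Some members were listed at very different levels in the tables of both birds, in either direction. EPHA10 was at 0.0 to 1.05 CPM in the chick and 11.8 to 18.3 in the emu, NTN4 at 0.0 to 1.07 and 2.45 to 17.3, and UNC5A at 0.726 to 9.23 and 20.6 to 30.2. EPHA10 and NTN4 were too low to be tested in the chick. Conversely, NTNG1 was at 11.2 to 32.8 CPM in the chick and 1.26 to 4.13 in the emu, PLXNC1 at 129 to 231 and 20.8 to 38.3, and SEMA6B at 13.4 to 38.2 and 2.08 to 8.5. A level difference between species also carries gene length and annotation, so none was tested.

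Chick and emu share no libraries, so their calls can be set beside each other. In splanchnopleure against lateral plate, 9 members rose in both species: SLIT2, SLIT3, ROBO2, FLRT2, SEMA3G, SEMA5A, SEMA6A, PLXND1 and EFNB1. They were 9 of the 16 chick risers (56.2%) and 9 of the 14 emu risers (64.3%). Of the 9, only SLIT2, SLIT3 and SEMA6A kept the call in every alternative in both species. Over all 9736 genes tested in both species, the 318 shared risers were 36.7% of chick and 28.9% of emu risers. EPHB1 and SEMA4D fell in both. In somatopleure against splanchnopleure, SLIT2, SLIT3, UNC5D, SEMA3G, SEMA6A, NRP1, PLXND1 and EFNB1 fell in both, and made up 8 of 17 chick fallers (47.1%) and 8 of 14 emu fallers (57.1%). Over all genes the shared fallers were 31.4% of chick and 44.9% of emu fallers. Of the 8 shared members, again only SLIT2, SLIT3 and SEMA6A kept the call in every alternative in both species. Whether the members' shares differ from those of all genes was not tested. SEMA3D fell there in the chick and rose in the emu.

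**Figure D4:**
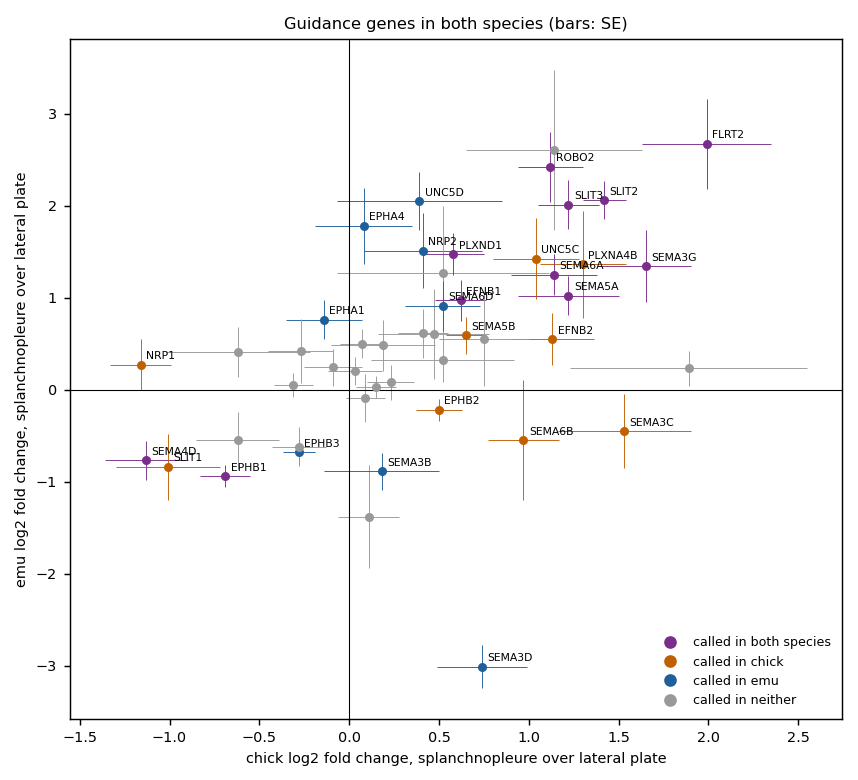
Log2 fold change of splanchnopleure over lateral plate in chick (horizontal) and emu (vertical) for the guidance genes tested in both, with SE bars, coloured by the species in which the gene was called. The 9 genes that rose in both lie at the upper right, and SEMA3D, at 0.74 in the chick and -3.01 in the emu, lies apart at the bottom.

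SEMA3D, a class 3 semaphorin known to guide neural crest and endothelial cells, had the largest difference between the species of all members. It was at 88.1, 96.2 and 81.1 CPM in chick lateral plate, 77.3, 66.1 and 88.5 in somatopleure and 164, 199 and 81.6 in splanchnopleure. In the emu it was at 143, 139 and 109 CPM in lateral plate, 43.3, 33.3 and 53 in somatopleure and 16.5 and 15.8 in splanchnopleure. The 3 emu tissues did not overlap and descended in that order, whereas chick splanchnopleure held the highest chick values and overlapped lateral plate through library 64.

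In the emu, SEMA3D fell by 3.01 in splanchnopleure against lateral plate (SE 0.23, adjusted p = 0.00167), and it was higher by 1.42 in somatopleure than in splanchnopleure (SE 0.22, adjusted p = 0.00601; 0.0502 without splanchnopleure 6). The emu change in somatopleure against lateral plate, -1.59, missed the threshold with edgeR (SE 0.18, adjusted p = 0.123) and passed it with DESeq2 (-1.60, adjusted p = 6.5e-11). In the chick, SEMA3D was lower by 0.93 in somatopleure than in splanchnopleure (SE 0.25, adjusted p = 0.0263), a call lost without somatopleure 15 or 60 or splanchnopleure 50 or 61 (adjusted p 0.0539 to 0.0916). Chick splanchnopleure against lateral plate gave 0.74 (SE 0.25, adjusted p = 0.0703), which passed the threshold with DESeq2 (0.74, adjusted p = 0.0218).

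A joint edgeR fit of both tables tested the difference between the species, given as the chick change minus the emu change. For SEMA3D it was 3.73 in splanchnopleure against lateral plate (SE 0.39, adjusted p = 0.000194), -2.30 in somatopleure against splanchnopleure (SE 0.38, adjusted p = 0.00311) and 1.43 in somatopleure against lateral plate (SE 0.34, adjusted p = 0.0368). The first and second of these passed in all 21 alternatives, and the last was lost in 10 of them (adjusted p 0.0517 to 0.136), namely without any single chick lateral plate library, chick somatopleure 15 or 63, emu lateral plate 1 or 23, emu somatopleure 13 or 53, or both emu libraries of departing stage. In the emu, 3 of 5 surface ectoderm markers also fell in splanchnopleure against lateral plate, beside 9.21% of all genes. Their summed levels were 148 to 158 CPM in lateral plate, 59.3 to 173 in somatopleure and 66.6 to 82.2 in splanchnopleure. In the chick 0 of these 5 were called, beside 16.9% of all genes, with 85.8 to 87.4, 113 to 199 and 19.8 to 132 CPM. The 132 CPM belong to chick splanchnopleure 61, which also had the most SEMA3D of the chick libraries (199 CPM). Chick splanchnopleure 50, with 19.8 CPM of the markers, had 164 CPM of SEMA3D. Chick somatopleure 15, with 199 CPM of the markers, had 77.3 CPM of SEMA3D. The part of surface ectoderm in the SEMA3D levels of either bird was not tested.

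In splanchnopleure against lateral plate, 3 of 50 members differed between the species, 2 with a higher chick change, beside 3.68% of all genes, and 1 with a lower, beside 4.56%. Together 8.24% of all genes differed, and without emu splanchnopleure 6 the count was 1, beside 2.04%. It rose to 5 without chick somatopleure 63, chick splanchnopleure 64 or emu somatopleure 5, beside 7.73%, 6.36% and 9.51%, and to 6 without emu somatopleure 13 or 53 or the emu splanchnopleure pool, beside 8.45%, 8.93% and 7.88%. Besides SEMA3D these were NRP1 and EPHB2. NRP1 fell in the chick and changed by 0.27 in the emu (SE 0.28), a species difference of -1.44 (SE 0.35, adjusted p = 0.0211) that was lost without emu splanchnopleure 6 (-0.93, adjusted p = 0.172). Of the 14 endothelial markers, 4 were called lower in the chick in this species difference, with a median of -1.29, and their part in the NRP1 value was not tested. EPHB2 changed by 0.50 in the chick and -0.22 in the emu, a difference of 0.71 (SE 0.19, adjusted p = 0.0299) that was lost without chick lateral plate 30 or 32, chick splanchnopleure 61 or 64, emu lateral plate 1 or 23, emu splanchnopleure 6 or both libraries of departing stage (adjusted p 0.0572 to 0.136).

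Between the layers, 6 of 50 members differed, 3 with a higher chick change, beside 2.47% of all genes, and 3 with a lower, beside 2.03%. Together 4.5% of all genes differed, and without emu splanchnopleure 6 the count was 2, beside 1.76%. EPHA4 changed by 1.04 in the chick and -1.25 in the emu, a species difference of 2.35 (SE 0.51, adjusted p = 0.0159). NRP2 changed by 0.74 in the chick and -1.82 in the emu, a difference of 2.61 (SE 0.57, adjusted p = 0.0161). SEMA5A changed by 0.06 in the chick and -1.54 in the emu, a difference of 1.66 (SE 0.38, adjusted p = 0.0195). These 3 genes were relatively higher in chick somatopleure, and each call rested on emu splanchnopleure 6, without which the adjusted p was 0.0842, 0.0536 and 0.0808. EFNB2 went the other way, at -2.17 in the chick and -0.37 in the emu, a difference of -1.74 (SE 0.39, adjusted p = 0.0169) that was lost without the emu splanchnopleure pool (0.0647). The difference for PLXNA4B, -2.43 (SE 0.67, adjusted p = 0.0488), was lost in 15 of 21 alternatives, among them each chick library left out singly and both emu splanchnopleure libraries (adjusted p 0.0526 to 0.211).

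In somatopleure against lateral plate, 5 of 50 members differed between the species, 3 with a higher chick change, beside 0.841% of all genes, and 2 with a lower, beside 1.52%. Together 2.36% of all genes differed. SEMA5A was at 21.7, 24.6 and 19.3 CPM in emu lateral plate and 15.9, 11.6 and 18.3 in emu somatopleure, whereas it rose in the chick, and the species difference was 1.84 (SE 0.37, adjusted p = 0.0169). That call was lost only without both emu libraries of departing stage (0.0636). NRP1 differed by -1.51 (SE 0.34, adjusted p = 0.0277), a call lost without any single chick lateral plate library, chick somatopleure 60 or 63, emu lateral plate 23 or 8 or emu somatopleure 53 (adjusted p 0.0502 to 0.072). PLXND1 differed by -1.41 (SE 0.30, adjusted p = 0.0215), a call lost without chick lateral plate 30 or 31, chick somatopleure 60 or 63, emu lateral plate 1 or 8 or both libraries of departing stage (0.0503 to 0.108). EPHB2 differed by 0.71 (SE 0.18, adjusted p = 0.0419), a call lost in 12 of 21 alternatives, among them each emu lateral plate and somatopleure library left out singly (0.0523 to 0.125). The count of members fell to 1 without chick lateral plate 30 or 31, chick somatopleure 63 or both emu libraries of departing stage, where 1.2%, 1.32%, 0.995% and 0.871% of all genes were called. It was 2 without chick lateral plate 32, chick somatopleure 60 or emu lateral plate 1 or 8, beside 1.35%, 1.36%, 1.09% and 1.35%, and 3 without emu lateral plate 23, beside 2.01%. Of the 14 endothelial markers, 2 were called in this species difference, both lower in the chick, and their part in the values of NRP1 and PLXND1 was not tested.

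**Figure D5:**
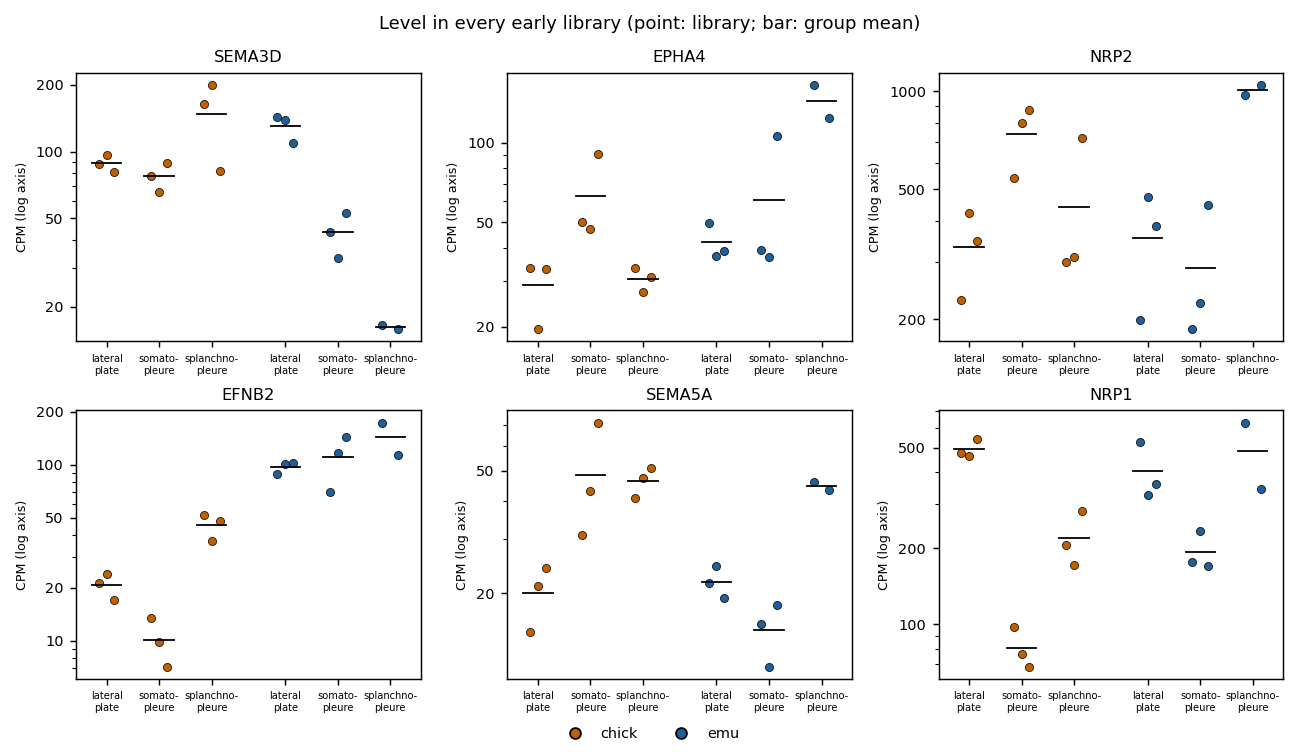
Level (CPM, log axis) of SEMA3D, EPHA4, NRP2, EFNB2, SEMA5A and NRP1 in each early library (points) with group means (bars). SEMA3D descends from 109 to 143 CPM in emu lateral plate to 15.8 and 16.5 in emu splanchnopleure, while chick splanchnopleure is at 81.6 to 199.

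Other genes of these pathways were read from a list of co-receptors and cytoplasmic effectors, of which 61 are in the tables. In chick somatopleure against lateral plate 2 of 60 tested rose, beside 3.52% of all genes, and 10 fell, beside 6.28%. In chick splanchnopleure against lateral plate 3 rose, beside 9.07%, and 4 fell, beside 7.78%. Between the chick layers 2 rose, beside 7.34%, and 13 fell, beside 11.8%. In the emu 0 of 59 were called in somatopleure against lateral plate, where 0.0% of all genes were. In emu splanchnopleure against lateral plate 9 rose, beside 11.4%, and 3 fell, beside 9.21%. Between the emu layers 1 rose, beside 5.05%, and 10 fell, beside 8.34%. The list medians lay between -0.21 and 0.12 in the 6 comparisons.

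SRGAP1, a GTPase-activating protein that acts downstream of slit and ROBO, was at 74.3, 65.1 and 72.7 CPM in emu lateral plate, 79.7, 60.8 and 70.9 in somatopleure and 185 and 163 in splanchnopleure. It rose by 1.30 over emu lateral plate (SE 0.14, adjusted p = 0.00215) and by 0.36 in the chick, which was not called (SE 0.15, adjusted p = 0.123). The species difference was -0.95 (SE 0.22, adjusted p = 0.0173). Its relatives SRGAP2 and SRGAP3 overlapped between these emu tissues. Emu SRGAP2 was at 112, 114 and 116 CPM in lateral plate and 151 and 114 in splanchnopleure. Emu SRGAP3 was at 127, 107 and 136, then 112 and 127 CPM. In the chick SRGAP2 was at 100, 80.8 and 93.5, then 74.1, 76.6 and 78.0 CPM, and SRGAP3 at 54.0, 45.4 and 46.5, then 52.9, 56.5 and 55.7. NEO1, the receptor neogenin, rose in chick somatopleure (0.70, SE 0.19, adjusted p = 0.0464) and in emu splanchnopleure (0.60, SE 0.14, adjusted p = 0.0196) against lateral plate. CRMP1, a mediator of class 3 semaphorin signalling, fell in chick somatopleure (-0.74, SE 0.09, adjusted p = 0.000435) and in the splanchnopleure of the chick (-0.52, SE 0.09, adjusted p = 0.00374) and the emu (-0.69, SE 0.18, adjusted p = 0.0273). VEGFA, the growth factor that binds NRP1, was at 47.1, 40.3 and 42.7 CPM in chick lateral plate and 6.49, 10.6 and 15.9 in somatopleure, a fall of 1.98 (SE 0.28, adjusted p = 0.00133). Its receptors also fell in chick somatopleure, KDR by 1.72 (SE 0.22, adjusted p = 0.000705) and FLT1 by 2.06 (SE 0.15, adjusted p = 2.8e-05). KDR is 1 of the 14 endothelial markers, of which 11 fell in that comparison with a median of -1.76, beside 6.28% of all genes. Both receptors are known from endothelium. These genes were named after their values were seen.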

How the data were processed

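The authors deposited raw read counts for each gene, without normalization. STAR, featureCounts, DESeq and galGal4 are named in the submitters' processing notes, with no versions; for the emu, the genome is not given in the sources used. Per the labels' protocols, early RNA came from PicoPure columns, and libraries were made by automation with Kappa reagents. Whether counting used strand, and how it split overlapping or near-identical genes, is not given, which leaves their values uncertain. The HH18 samples (23) were not analysed here, because their gene identifiers matched no symbol.

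Each early table was fitted whole in R 4.3.3 with edgeR 4.0.16, using TMM factors, the filterByExpr rule (count 10, total 15), a two-sided quasi-likelihood F test and Benjamini-Hochberg adjustment over 10071 chick or 10640 emu genes. All adjusted p-values are edgeR's unless DESeq2 1.42.0 is named. The species difference was an interaction over 11063 genes. CPM used TMM-scaled library sizes, and an SE is the absolute log2 fold change divided by the square root of F. Between replicates the lowest chi-square per degree of freedom was 4.04, so no pair agreed within sampling noise. Nothing says that libraries came from separate embryos: p-values reflect variation between these libraries, possibly technical.

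Genes described in full were, per comparison, up to 5 called rises and 5 called falls with a mean log2 CPM of at least 1, all called species differences, and the member of each family with most reads; other members are named to account for each family, after their values were seen. Members and lists were chosen with earlier results of these data known. Alternatives were RLE scaling, no filter, DESeq2, each library left out, the emu libraries of departing stage left out, and only the tissues compared. In simulated data with known changes of 1 and 2 on the log2 scale, the fit recovered 85% and 98% in chick somatopleure against lateral plate (9979 genes), 70% and 97% in the emu (10531 genes) and 47% and 94% for the species difference (10817 genes). The genes changed in the simulation had a mean above 5 CPM, and all other genes had the same mean in every group. Simulated counts varied by the spread fitted for each expression level, not by each gene's own spread. Recovery in the real libraries may therefore be lower. Marker lists for nephric tissue and blood had 0 genes in the tables.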

Additional observations from a re-analysis of the deposited data

Results flagged for a closer look

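The results below are those where the change between tissues differed between chick and emu by the interaction test; values are the chick change minus the emu change on the log2 scale. In splanchnopleure against lateral plate these were SEMA3D (3.73), NRP1 (-1.44) and EPHB2 (0.71). In somatopleure against splanchnopleure they were NRP2 (2.61), EPHA4 (2.35), SEMA5A (1.66), EFNB2 (-1.74), SEMA3D (-2.30) and PLXNA4B (-2.43). In somatopleure against lateral plate they were SEMA5A (1.84), SEMA3D (1.43), EPHB2 (0.71), PLXND1 (-1.41) and NRP1 (-1.51). The emu splanchnopleure has 2 libraries, and the labels of 2 emu libraries depart in stage from the rest of their tissue.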

How the results depend on the processing

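Of 105 calls of members, 49 passed in every alternative run, 56 were lost in at least 1, and 0 changed direction. The losses named for single genes are mostly those with 1 library left out, and some of these calls were also lost in other alternatives. Counts of called members stayed within 1.5 times of the reported ones under RLE scaling and without the filter on low counts. With DESeq2, 2 members were called in emu somatopleure against lateral plate (1.32% of all genes), and the species differences rose to 10 in somatopleure against lateral plate (5.38%), 10 between the layers (8.02%) and 8 in splanchnopleure against lateral plate (12.2%). Without both emu libraries of departing stage, 12 members were called in emu splanchnopleure against lateral plate (6.2%), 10 between the emu layers (4.29%) and 1 in the species difference in somatopleure against lateral plate (0.871%). Fitting only the tissues compared gave 11 between the emu layers (5.34%).

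Leaving out each library in turn gave 11 to 17 called members in chick somatopleure against lateral plate, 15 to 24 in chick splanchnopleure against lateral plate and 17 to 20 between the chick layers, where 5.68% to 10.4%, 8.02% to 22.0% and 11.8% to 21.3% of all genes were called. In the emu it gave 0 to 0, 6 to 22 and 7 to 19 in the same order, the lowest of the last 2 without splanchnopleure 6, beside 0.0% to 0.00943%, 3.26% to 23.7% and 2.43% to 14.9% of all genes. The species differences ran from 1 to 6, from 1 to 6 and from 2 to 8 in the same order, beside 0.995% to 3.18%, 2.04% to 9.51% and 1.76% to 6.86%. With an arm of 1 emu splanchnopleure library, that library is assumed to vary like the other groups. No paired analysis was possible because the tissue groups share no library numbers. In somatopleure against lateral plate, 47% of simulated species differences of 1 on the log2 scale were recovered, so differences of that size or smaller may have been missed there. Comparisons with emu splanchnopleure, which has 2 libraries, were not simulated.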
